A study of Rattus norvegicus with 36 samples.

Results

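Whole lungs of Brown Norway (BN) rats were compared with those of Fisher rats on postnatal day 1 (PN1), using 9 of the 36 arrays of a series that covered 3 inbred rat strains (BN, Fisher and Lewis) at PN1, PN7 and PN14. The arrays were chosen by their titles alone: 5 titled BN at PN1 and 4 titled Fisher at PN1. The labels name no treatment or genetic alteration for either group, so strain is the labelled difference. Each sample was total RNA of whole lung, labelled as biotin-cRNA and hybridised to an Illumina rat bead array, on which each gene is read by the brightness of 1 or more bead-bound probes. The labels do not say whether replicates were separate animals, so p-values here reflect the variation among these hybridised samples alone, which could be technical.

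The rat lung at birth has thin-walled saccules but few alveoli. In the days after birth its cells go through a burst of division while secondary septa subdivide the saccules, and surfactant, the lipid and protein film made by alveolar type 2 cells, keeps the air spaces open. Corticosteroids, sterol regulatory factors and morphogens of the Wnt, hedgehog and bone morphogenetic protein families are known to act on this stage. BN rats are widely used in models of allergic airway disease, and the series was set up around genetic influence on asthma susceptibility.

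All levels below are log2 normalised intensities of a probe, on which a step of 1 is a 2-fold change and a probe at background lies near 8. All 11339 probes detected on at least 3 of the 36 arrays were tested together with limma, and "called" means an adjusted p under 0.05. Both groups carried the markers of the labelled tissue: the surfactant protein gene Sftpc averaged 14.38 ± 0.25 on BN arrays and 14.21 ± 0.23 on Fisher arrays, and Scgb1a1, the club cell secretory protein, averaged 15.98 and 16 (SD, n = 5 BN and 4 Fisher). BN arrays detected 9451 to 9933 probes and Fisher arrays 10003 to 10258, without overlap, and raw array medians were 221.6 to 243.9 in BN and 234.8 to 255.3 in Fisher lung. The part of detection in the results was not tested. The number of arrays limits the precision.

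BN replicate 5 stood apart. Its correlation over probes was 0.974 with the mean of the other BN PN1 arrays and 0.996 with the mean of the BN PN14 arrays, whereas BN PN14 replicate 3 correlated best with the BN PN1 arrays, at 0.994. BN replicates 1 to 4 and all 4 Fisher arrays shared a slide, on which strain ran with array position, so that position and strain cannot be told apart. BN replicate 5 was on another slide with PN14 arrays. The main counts of calls and most genes given by array are therefore reported with all arrays and again without BN replicate 5. Counts shared between ages, list counts of change with age and promoter shares used all arrays unless stated. In addition, heart muscle genes were high on BN replicate 3 and Fisher replicate 2: the mean of 26 heart genes was 12.19 on BN replicate 3 and 11.88 on Fisher replicate 2, with the other PN1 arrays of these strains between 9.32 and 10.65. The thymus and T cell lists were highest on Fisher replicate 2 (9.68 and 9.20) and BN replicate 2 (9.28 and 8.95), against 8.14 to 8.82 on the others. Of the 26 heart genes 0 were called between the strains (1, Myh7, without BN replicate 5), and of the 10 thymus genes 1 (Cd1d1, 0.17). Of 11 brown fat genes 3 were called higher in BN and 0 lower, also without BN replicate 5 (15.5% and 18% of all probes with all arrays). Their list mean ranged from 8.46 to 10.05 on BN arrays and from 8.47 to 9.10 on Fisher arrays. The part of these tissues in the other differences was not tested.

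At PN1, 3791 probes were called between the strains, 33.4% of those tested: 1754 were higher in BN (15.5%) and 2037 lower (18%). Without BN replicate 5 the calls numbered 4229 (37.3%), 1984 higher (17.5%) and 2245 lower (19.8%), and 1600 higher (14.1%) and 1891 lower (16.7%) were called both ways. With median scaling in place of quantile normalisation the calls numbered 2258, of which 657 were higher and 1601 lower, or 29.1% higher in place of 46.3%. Median scaling without BN replicate 5 gave 1155 higher and 1321 lower, or 46.6% higher, against 46.9% with quantile normalisation. A change of at least 2-fold was reached by 258 called probes (2.28%), 141 higher in BN (1.24%) and 117 lower (1.03%), and by 328 (2.89%) without BN replicate 5 (1.74% higher and 1.16% lower). For 976 probes all 5 BN arrays lay above all 4 Fisher arrays (8.61%), and for 1222 they all lay below (10.8%); without BN replicate 5 these were 1609 (14.2%) and 1825 (16.1%).

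The BN minus Fisher difference at PN1 differed from that at PN7 for 2117 probes (18.7%) and from that at PN14 for 511 (4.51%), tested as interactions in the same fit. Without BN replicate 5 these were 2635 (23.2%) and 761 (6.71%). With BN PN14 replicate 3 also left out they were 3078 and 1587. Of the 258 probes called and changed at least 2-fold at PN1, 158 differed from PN7, 97 differed from PN14, and 91 differed from both with the larger difference at PN1. The counts among the 258 used all arrays and were not repeated without those arrays. The 258 were chosen by their PN1 difference, which enters both tests, so these counts cannot be set against the shares of all probes. Other probes were called at every age: 309 were higher in BN at PN1, PN7 and PN14 and 261 lower, and 51 and 25 of these were at least 2-fold at all 3 ages. The gene lists taken up in turn are summarised in the plot of list members called. Their counts stand against 15.5% of all tested probes called higher in BN and 18% lower, or 17.5% and 19.8% without BN replicate 5.

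**Figure D1:**
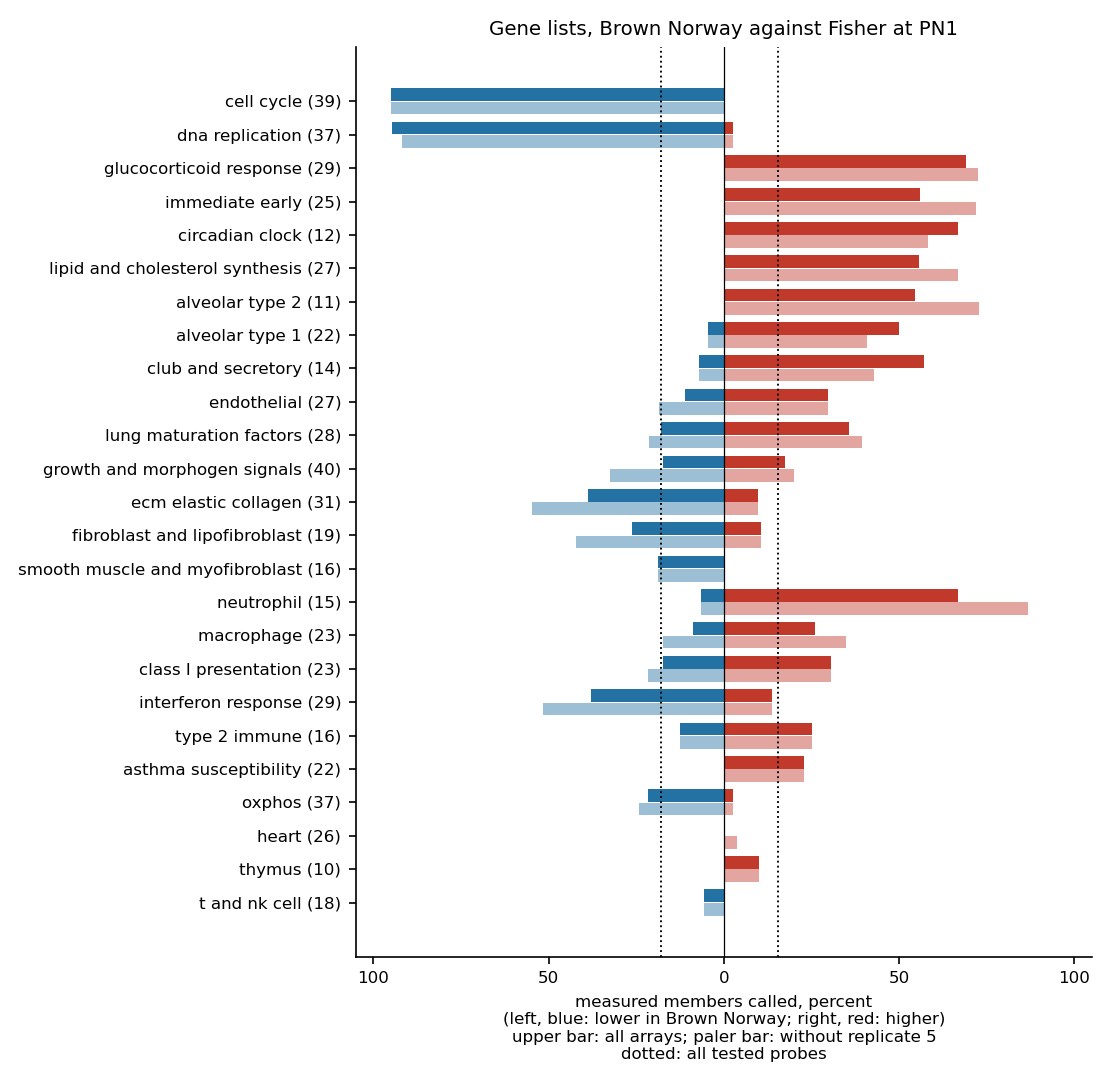
Percent of the measured members of each gene list that were called lower (left, blue) or higher (right, red) in BN than in Fisher lung at PN1; upper bars use all arrays, paler bars leave out BN replicate 5, dotted lines mark all tested probes and the number of measured members is in brackets. In the cell cycle list 37 of 39 members were lower in BN and 0 were higher, and in the glucocorticoid list 20 of 29 were higher and 0 lower.

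Genes of cell division were lower in BN than in Fisher lung at PN1. Of 39 measured cell cycle genes 37 were lower and 0 higher, against 18% and 15.5% of all tested probes, with a median log2 difference of -1.57 against 0 for all probes. Of 37 measured DNA replication genes 35 were lower and 1, Rfc2, was higher by 0.59, with a median of -0.52. Without BN replicate 5 the counts were 37 and 34. Such differences in bulk tissue do not tell fewer dividing cells from less RNA per cell.

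The cell cycle genes are shown with their promoters because many vertebrate genes of G2 and mitosis carry a cell cycle homology region, TTTGAA, near their start together with CCAAT boxes bound by NF-Y, while many replication genes carry E2F sites such as TTTGGCGC. The 150 bases before the start of Cdk1 (chr20:19265143-19265292, + strand), Cdc20 (chr5:137255800-137255949, - strand) and Ccnb2 (chr8:79981659-79981808, - strand) are given 5′ to 3′ on the gene's strand from RefSeq, build GRCr8, with TTTGAA and CCAAT in capitals in either orientation.
Cdk1: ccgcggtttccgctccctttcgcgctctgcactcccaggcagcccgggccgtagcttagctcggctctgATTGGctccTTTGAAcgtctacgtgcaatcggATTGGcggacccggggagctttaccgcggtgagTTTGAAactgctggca
Cdc20: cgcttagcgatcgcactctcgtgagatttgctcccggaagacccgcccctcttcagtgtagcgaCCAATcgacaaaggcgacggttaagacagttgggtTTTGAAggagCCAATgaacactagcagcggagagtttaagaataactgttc
Ccnb2: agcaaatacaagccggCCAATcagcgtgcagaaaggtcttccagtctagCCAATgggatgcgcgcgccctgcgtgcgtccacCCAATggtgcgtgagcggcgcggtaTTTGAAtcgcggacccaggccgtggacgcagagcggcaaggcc
For DNA replication, the same stretch is given for Gins1 (chr3:160184770-160184919, + strand), Mcm6 (chr13:42404353-42404502, - strand) and Tyms (chr9:120776084-120776233, - strand), with TTTGGCGC in capitals in either orientation.
Gins1: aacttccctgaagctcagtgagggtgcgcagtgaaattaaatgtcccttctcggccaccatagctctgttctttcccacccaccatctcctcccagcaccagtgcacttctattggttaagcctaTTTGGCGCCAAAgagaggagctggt
Mcm6: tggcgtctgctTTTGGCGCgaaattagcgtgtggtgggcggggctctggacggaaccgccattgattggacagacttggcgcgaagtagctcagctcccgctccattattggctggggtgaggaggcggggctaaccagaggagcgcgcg
Tyms: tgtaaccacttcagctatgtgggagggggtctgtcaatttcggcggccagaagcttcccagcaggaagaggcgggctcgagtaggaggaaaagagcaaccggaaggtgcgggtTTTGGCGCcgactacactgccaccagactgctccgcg

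Promoter windows of 300 bases, from 250 before to 50 after the start, were searched on both strands. Of the 39 cell cycle genes 29 matched a RefSeq promoter; TTTGAA was found in 22 of them and TTTGAA together with CCAAT in 19 (65.5%), whereas 18.1% and 7.25% of all 27457 RefSeq promoters held them, and 11.3% and 4.62% of the 6709 promoters of tested genes. Among genes called at least 2-fold lower in BN, 38 of 74 promoters held TTTGAA (51.4%) and 26 held both (35.1%), and among those at least 2-fold higher 10 of 89 (11.2%) and 4 (4.49%) did. The lower set was chosen by the same PN1 values and shares genes such as Cdk1, Cdc20 and Ccnb2 with the cell cycle list. Its share is therefore no separate observation. TTTGGCGC was found in 9 of 33 replication promoters (27.3%) in 0.521% of all RefSeq promoters and in 0.969% of those of tested genes. The 22 cell cycle genes with TTTGAA had a median log2 difference of -1.75 (range -2.28 to -0.28), and the 7 without it -0.46 (range -2.26 to 0.03). A match to these letters is a description and does not show that a factor was bound.

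**Figure D2:**
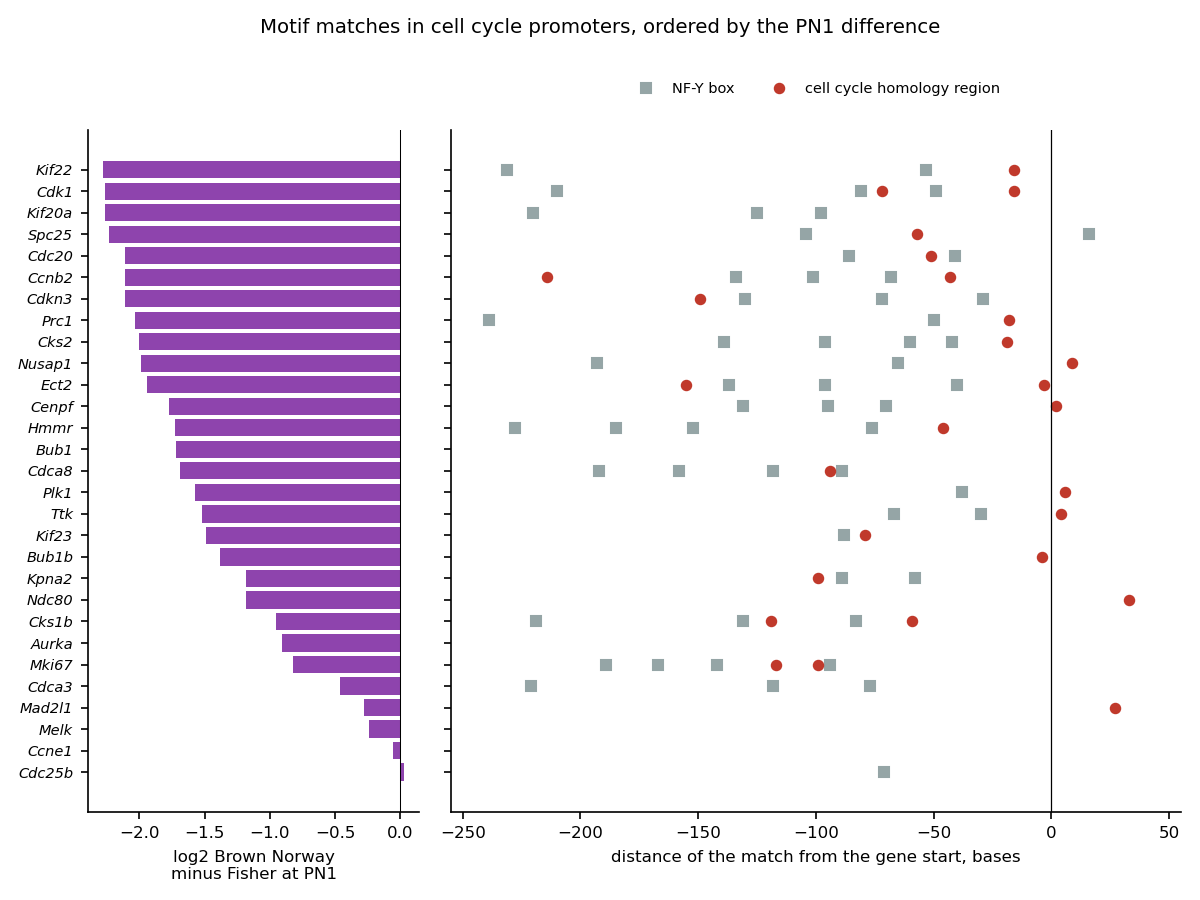
Left, log2 BN minus Fisher difference at PN1 of the 29 cell cycle genes with a RefSeq promoter, ordered from the most negative; right, distance in bases of each match of the NF-Y box (CCAAT, grey squares) and the cell cycle homology region (TTTGAA, red circles) from the gene start. TTTGAA is present in 22 of the 29 promoters.

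Ccna2, which encodes cyclin A2 and is needed for DNA synthesis and entry into mitosis, (probe ILMN_66491) read 8.59, 8.96, 9.62, 9.05 and 8.74 on the 5 BN arrays and 11.57, 11.69, 11.50 and 11.34 on the 4 Fisher arrays. Every BN array lay below every Fisher array by a wide margin, and the log2 difference was -2.53 ± 0.18 (SE; limma, adjusted p 1.6e-12). Cdk1, the kinase that drives mitosis, read 10.47, 10.55, 11.37, 10.70 and 10.65 in BN and 13.10, 13, 13.02 and 12.92 in Fisher lung, a difference of -2.26 ± 0.20 (limma, adjusted p 4.17e-10). The differences without BN replicate 5 were -2.47 and -2.24. BN replicate 3 was the highest of the BN arrays for both genes and still far below the Fisher range.

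Cdc20, the activator of the anaphase-promoting complex, read 9.07, 8.94, 9.44, 9.09 and 8.79 in BN and 11.15, 11.20, 11.14 and 11.23 in Fisher lung. Knstrn, a spindle protein of the kinetochore, read 9.37, 9.34, 10.10, 9.21 and 8.79 in BN and 12.08, 12.06, 11.88 and 11.91 in Fisher lung. The differences were -2.11 ± 0.13 and -2.62 ± 0.20 (-2.04 and -2.48 without BN replicate 5), with no overlap of arrays. Kif22, Tpx2, Kif20a, Spc25, Kifc1, Pbk and Cdkn3, which serve the spindle, kinetochore or mitotic control, were lower by similar amounts, with differences between -2.28 and -2.11. Mki67, the classical proliferation marker, and Foxm1, the transcription factor of the mitotic programme, were dimmer and gave smaller differences: Mki67 read 8.24 to 8.35 in BN and 9.03 to 9.19 in Fisher lung, and Foxm1 8.44 to 8.61 and 9.17 to 9.29. For Mki67 the authors' deposited log2 values gave -1.98 in place of -0.82; by construction, the offset added here compresses dim probes. Of the cell cycle list only Aurkb and Cdc25b were not called, at -0.19 (limma, adjusted p 0.583) and 0.03 (limma, adjusted p 0.851).

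Among the replication genes, Rrm2, a subunit of ribonucleotide reductase, read 9.02, 9.84, 10.90, 9.90 and 9.26 in BN and 12.14, 12.38, 12.22 and 11.99 in Fisher lung, a difference of -2.40 ± 0.28 (limma, adjusted p 6.01e-08). Mcm2, of the replicative helicase, read 9.60, 10.22, 10.18, 10 and 9.76 in BN and 11.01, 11.18, 10.99 and 10.65 in Fisher lung, a difference of -1.01 ± 0.14. BN arrays lay below all Fisher arrays for both, and without BN replicate 5 the differences were -2.27 and -0.96. Pole2 (-1.37), Orc6 (-1.06) and Fen1 (-1.03), of the polymerase, the origin complex and the flap endonuclease, were lower too, and Pola2, the remaining member, was not called (0.20).

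The direction turned over within the first week. At PN7, 37 of 39 cell cycle genes and 35 of 37 replication genes were called higher in BN (background 8.9%) and 0 lower (7.61%), with medians of 1.01 and 0.52, and at PN14 0 and 2 were called higher (5.59%) and 0 lower (6.94%), also when BN PN1 replicate 5 and BN PN14 replicate 3 were both left out. The strain difference was lower at PN1 than at PN7 for 37 of the 39 cell cycle genes and 36 of the 37 replication genes (10.3% of all probes), and lower at PN1 than at PN14 for 36 and 29 (3.25%). Ccna2 read 10.80 to 11.26 on the BN PN7 arrays and 8.86 to 10 on the Fisher PN7 arrays, a difference of 1.65, and the change in the strain difference was -4.18 (limma, adjusted p 1.5e-13). The mean of the cell cycle list on the PN1 arrays was 9.01, 9.09, 9.42, 9.09 and 8.92 in BN and 10.57, 10.62, 10.57 and 10.45 in Fisher lung, with the 3 Lewis arrays at 9.93 to 10. BN replicate 5 was the lowest of the BN arrays (8.92), and Fisher replicate 2, on which thymus genes were high, was the highest of the Fisher arrays (10.62).

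**Figure D3:**
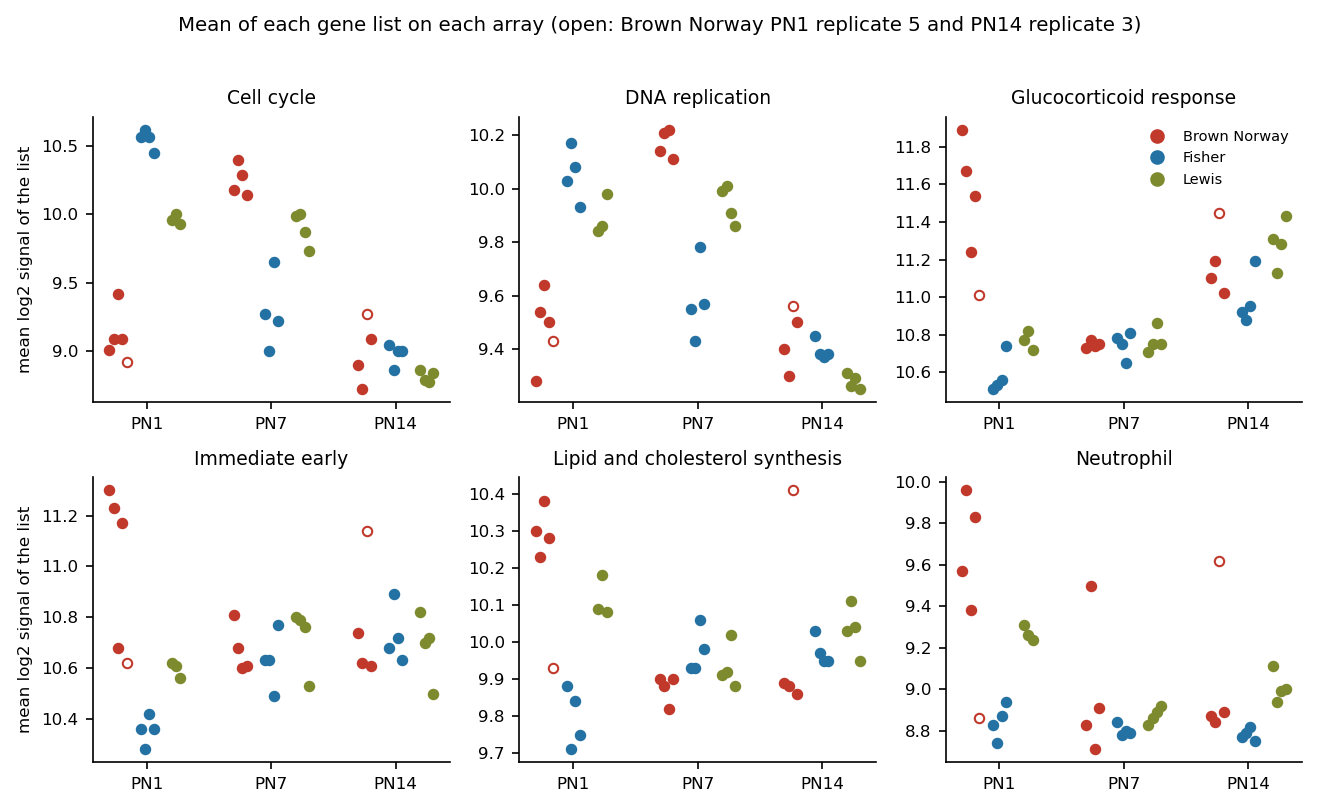
Mean log2 signal of 6 gene lists on each array of BN (red), Fisher (blue) and Lewis (green) lung at PN1, PN7 and PN14; open circles are BN PN1 replicate 5 and BN PN14 replicate 3. At PN1 the cell cycle mean was 8.92 to 9.42 in BN and 10.45 to 10.62 in Fisher lung, and the strains lie the other way round at PN7.

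Many genes known to be induced by glucocorticoids were higher in BN lung at PN1. Of 29 measured members 20 were called higher and 0 lower (background 15.5% and 18%), with a median of 0.72, and without BN replicate 5 the count was 21 with a median of 0.77. At PN7, 2 were higher and 3 lower (background 8.9% and 7.61%), with a median of -0.02. Between PN1 and PN7, 17 of the 29 differed upward (8.37% of all probes). The list mean was 11.89, 11.67, 11.24, 11.54 and 11.01 on the BN arrays and 10.51, 10.53, 10.56 and 10.74 on the Fisher arrays, and Lewis arrays lay between 10.72 and 10.82. BN arrays spread widely but all lay above the Fisher and Lewis arrays, with BN replicate 5 the lowest.

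Per1, a clock gene that glucocorticoids induce directly, read 13.20, 13.99, 12.36, 13.39 and 11.79 in BN and 9.58, 10.75, 10.42 and 10.61 in Fisher lung, a difference of 2.60 ± 0.39 (6.08-fold; limma, adjusted p 4.31e-06). Klf9, a zinc finger factor of the same response, read 13.95, 14.20, 13.41, 13.81 and 13.38 in BN and 11.48, 11.89, 11.56 and 11.84 in Fisher lung, a difference of 2.06 ± 0.16 (limma, adjusted p 1.19e-11). For both genes the lowest BN array was at least 1 log2 unit above the highest Fisher array, and without BN replicate 5 the differences were 2.89 and 2.15. Klf9 was lower in BN at PN7 (-0.55, limma, adjusted p 0.019) and higher at PN14 (0.57, limma, adjusted p 0.0191), each by much less than at PN1.

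Ddit4, an inhibitor of mTOR signalling, read 13.41, 12.34, 12.50, 12.54 and 10.66 in BN and 9.88, 10.56, 9.72 and 10.36 in Fisher lung, a difference of 2.16 ± 0.39 (limma, adjusted p 6.47e-05). Tsc22d3, the leucine zipper protein known as GILZ, read 13.87, 13.08, 13.22, 13.03 and 13.24 in BN and 11.94, 11.99, 12.07 and 12.44 in Fisher lung, a difference of 1.18 ± 0.19. BN replicate 5 was just above the highest Fisher array for Ddit4 and inside the BN range for Tsc22d3, and the differences without it were 2.56 and 1.19. Klf15 (1.74), Dusp1 (1.79), Errfi1 (1.31), Nfkbia (1.17) and Sult1a1 (1.04) were also called higher. Members that were not called included Sgk1 (-0.22), Pdk4 (0.31), Angptl4 (0.00) and Hsd11b1, the enzyme that regenerates active corticosteroid (0.02, limma, adjusted p 0.914). The receptor gene Nr3c1 has a probe that was detected on 0 arrays, and Fkbp5 has no named probe. Zbtb16, at 8.26 in BN and 8.02 in Fisher lung, was detected on 2 BN arrays and 0 Fisher arrays.

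Immediate early genes, which cells switch on soon after a stimulus, were higher in BN at PN1 for 14 of 25 members, lower for 0, with a median of 0.70; without BN replicate 5 the count was 18 with a median of 0.83. Zfp36, which destabilises inflammatory mRNAs, read 13.89, 13.36, 12.26, 14.06 and 12.35 in BN and 11.14, 11.12, 11.10 and 11.31 in Fisher lung, a difference of 2.02 ± 0.26 (limma, adjusted p 3.75e-07; 2.23 without BN replicate 5). Fos read 11.27, 11.40, 8.76, 10.68 and 8.45 in BN and 8.35, 8.4, 8.55 and 8.41 in Fisher lung. Fos was thus high on BN replicates 1, 2 and 4 and within or just above the Fisher range on replicates 3 and 5, and its difference of 1.68 ± 0.41 (limma, adjusted p 0.00199; 2.10 without BN replicate 5) was not called when only the 9 PN1 arrays entered the fit (adjusted p 0.117). Junb (1.39), Ccn1 (1.25), Klf4 (1.21), Jun (1.18) and Egr1 (1.03) were called higher, while Myc, Egr2, Ptgs2 and Nr4a2 were between -0.08 and 0.12 and not called.

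Of 12 circadian clock genes 8 were called higher in BN and 0 lower, with a median of 0.49; without BN replicate 5 the count was 7. Bhlhe40 (1.35), Nfil3 (1.34), Tef (1.07), Nr1d1 (0.85), Per2 (0.53) and Cry1 (0.45) were higher, while Bmal1 (0.05), Npas2 (-0.03), Per3 (-0.01) and Dbp (0.08) were not called. The count was 5 without BN replicate 2, Fisher replicate 2 or Fisher replicate 3. At PN7 and PN14, 0 of the 12 were called, against 16.5% and 12.5% of all tested probes. With 12 genes, a count of 0 cannot be told from those shares. The labels do not state the hour at which lungs were taken, so time of day and strain cannot be told apart for these genes.

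**Figure D4:**
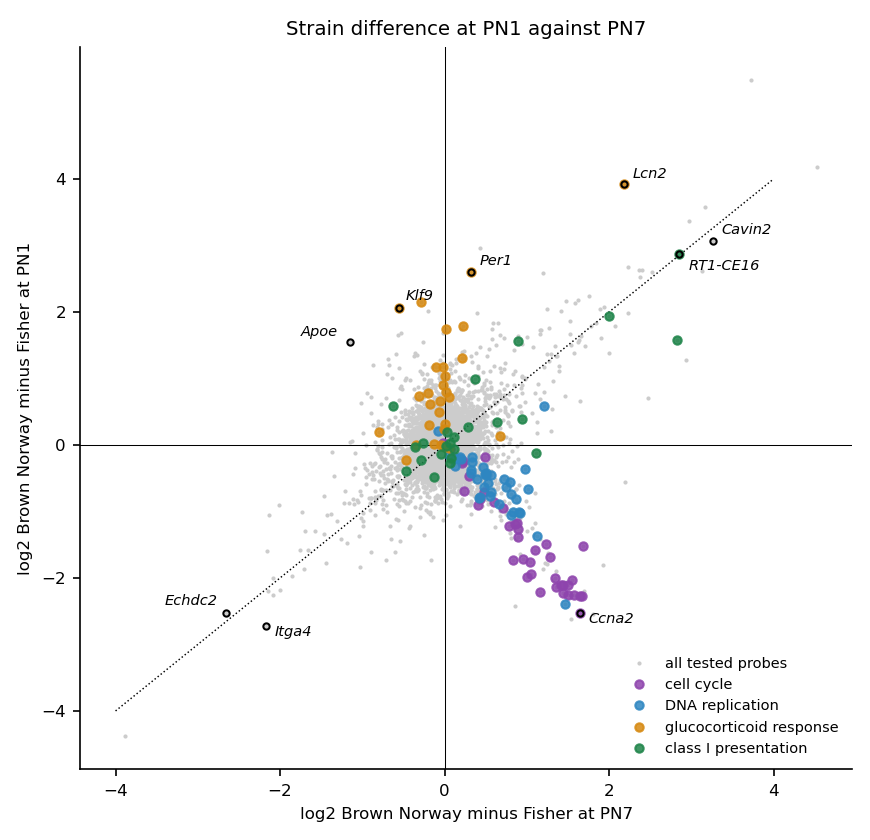
Log2 BN minus Fisher difference of each tested probe at PN1 (vertical) against PN7 (horizontal), with the dotted line marking equal differences and colours marking 4 gene lists. Cell cycle and replication genes lie at lower right (Ccna2 at -2.53 and 1.65), glucocorticoid genes lie above the centre (Per1 at 2.60 and 0.33), and Cavin2, RT1-CE16, Itga4 and Echdc2 lie along the line.

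Genes of cholesterol and lipid synthesis were higher in BN lung at PN1, for 15 of 27 members, with 0 lower and a median of 0.34; without BN replicate 5 the count was 18 with a median of 0.39. Insig1, the sterol sensor of the endoplasmic reticulum, read 12.33, 11.98, 12.19, 11.84 and 10.43 in BN and 10.31, 10.09, 10.30 and 10.09 in Fisher lung. Fdps, of the mevalonate pathway, read 11.11, 10.69, 11.18, 10.63 and 9.64 in BN and 9.71, 9.56, 9.69 and 9.62 in Fisher lung. In both cases 4 BN arrays lay well above the Fisher range and replicate 5 lay just above it or inside it, with differences of 1.55 ± 0.29 (1.88 without replicate 5) and 1.00 ± 0.24 (1.26 without it). Msmo1 (1.12), Sqle (0.86), Fdft1 (0.84), Idi1 (0.83) and Srebf2 (0.60) of the sterol branch were higher, as were Cds1 (0.82), Agpat2 (0.67), Chka (0.63) and Lpcat1 (0.44), which make the phospholipids of which surfactant consists. The fatty acid genes Acaca (-0.03), Scd (-0.12), Elovl5 (-0.10) and Fads2 (-0.02) were not called. With median scaling 6 of the 27 were called higher.

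Of 11 alveolar type 2 markers 6 were called higher in BN and 0 lower, with a median of 0.43, and without BN replicate 5 the count was 8 with a median of 0.56; it was 2 without Fisher replicate 2 and 3 without BN replicate 1 or BN replicate 4. Sftpb, the surfactant protein required for breathing at birth, read 16, 15.83, 15.44, 15.88 and 14.95 in BN and 15, 14.69, 15.17 and 15.15 in Fisher lung, a difference of 0.61 ± 0.17 (limma, adjusted p 0.00542; 0.78 without BN replicate 5) that lost its call with only the 9 arrays in the fit (adjusted p 0.0923). Sftpc read 14.44, 14.49, 14.40, 14.62 and 13.96 in BN and 14.31, 13.87, 14.37 and 14.26 in Fisher lung, and was called only when BN replicate 5 was left out or slide or replicate number was a block (0.28, limma, adjusted p 0.0126 without it; 0.18, adjusted p 0.189 with it). BN replicates 1 to 4 were above all Fisher arrays for both genes and replicate 5 was not. Cd36 (0.86), Napsa (0.51) and Ctsh (0.46) were higher, and Sftpa1 was not called (-0.01).

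Alveolar type 1 and club cell markers were also more often higher than lower in BN. Of 22 type 1 markers 11 were higher and 1, Igfbp2 (-0.78), lower, with a median of 0.28, falling to 9 higher and 0.15 without BN replicate 5. Apart from Cavin2, the members called higher included Scnn1a (0.85), Timp3 (0.79), Gprc5a (0.77), Ager (0.70), Hopx (0.52) and Pdpn (0.32), and Aqp5 was not called (-0.04, limma, adjusted p 0.921). Of 14 club and secretory genes 8 were higher and 1 lower, with a median of 0.41; the higher count was 6 without BN replicate 5, and 4 without BN replicates 2, 3 and 5 and Fisher replicate 2. Scgb3a2, a secretoglobin of the distal airway, read 15, 14.85, 14.96, 14.84 and 14.42 in BN and 12.83, 12.09, 12.67 and 12.99 in Fisher lung, a difference of 2.17 ± 0.16 (4.5-fold; limma, adjusted p 4.17e-12; 2.27 without BN replicate 5) that was still 1.99 at PN14. All BN arrays lay more than 1 log2 unit above the Fisher arrays. Selenbp1 (1.10), Fmo1 (0.94) and Fmo2 (0.89) were higher, Sec14l3 was lower (-1.05), and Scgb1a1 was not called (-0.02, limma, adjusted p 0.587). Scgb1a1, like Sftpb on BN replicate 1, lay at the top of the levels given here, where a difference could be compressed. Such compression was not tested, so the lack of a call for Scgb1a1 does not show equal expression.

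Among transcription and maturation factors of the lung, 10 of 28 were higher in BN and 5 lower, with a median of 0.02, and 11 and 6 without BN replicate 5. The shares of all probes were 15.5% higher and 18% lower, and the lower share of this list was close to the latter. Nfib, which is required for maturation of the perinatal lung in mice, read 12.63, 12.73, 12.52, 13.01 and 13.12 in BN and 10.18, 10.08, 10.30 and 10.13 in Fisher lung, a difference of 2.63 ± 0.14 (6.19-fold; limma, adjusted p 2.05e-15; 2.55 without BN replicate 5). It differed by 2.40 at PN7 and 2.30 at PN14 as well. A difference of strain sequence under the Nfib probe was not compared here and cannot be told apart from a difference in expression. Klf5 (1.23), Tbx3 (0.97), Id1 (0.80), Sox17 (0.76) and Nkx2-1 (0.69), the master factor of lung epithelium, were higher, and Gata5 (-1.42), Foxm1 (-0.72), Mycn (-0.68), Etv4 (-0.49) and Sox2 (-0.25) were lower.

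A set of single genes kept a large strain difference at every age. Cavin2, a caveolar coat protein, read 11.62, 11.36, 11.55, 11.60 and 12.27 in BN and 8.72, 8.49, 8.65 and 8.61 in Fisher lung, a difference of 3.07 ± 0.14 (8.37-fold; limma, adjusted p 9.91e-17), with 3.26 at PN7 and 3.14 at PN14. Itga4, the alpha 4 integrin subunit of leukocyte homing, read 8.48, 8.64, 8.55, 8.67 and 9 in BN and 11.54, 11.36, 11.49 and 11.17 in Fisher lung, a difference of -2.72 ± 0.09, with -2.17 and -2.51 later. In neither gene did any BN array come near a Fisher array, and without BN replicate 5 the PN1 differences were 2.92 and -2.80.

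Washc3, a subunit of the endosomal WASH complex, read 11.81, 11.82, 11.80, 11.85 and 11.51 in BN and 8.27, 8.07, 8.08 and 8.31 in Fisher lung, a difference of 3.57 ± 0.08, and was detected on 2 of the 4 Fisher arrays. Echdc2, a mitochondrial hydratase-like protein, read 8.02, 8.01, 8.02, 8.01 and 8.25 in BN and 10.53, 10.50, 10.60 and 10.73 in Fisher lung, a difference of -2.53 ± 0.06, and was detected on 1 BN array, replicate 5. Without that array the differences were 3.63 for Washc3 and -2.58 for Echdc2. These are close to on-or-off patterns with a dim side at background, where the fold depends on the offset: the authors' deposited log2 values gave 5.79 for Washc3 and -6.31 for Echdc2. Hmgn1 (3.36), Ly6i (2.68), Cd2bp2 (2.60) and Slco1a5 (2.59) were likewise higher in BN at all 3 ages, and Odc1 and Ankra2, detected on 0 Fisher arrays, were at least 4.45-fold and 4.33-fold higher in BN. Differences of strain sequence under a probe were not compared here, and they cannot be told apart from differences in expression for such genes. Ly6 and RT1 genes belong to families of near-identical copies, so that their probes may read more than 1 copy.

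**Figure D5:**
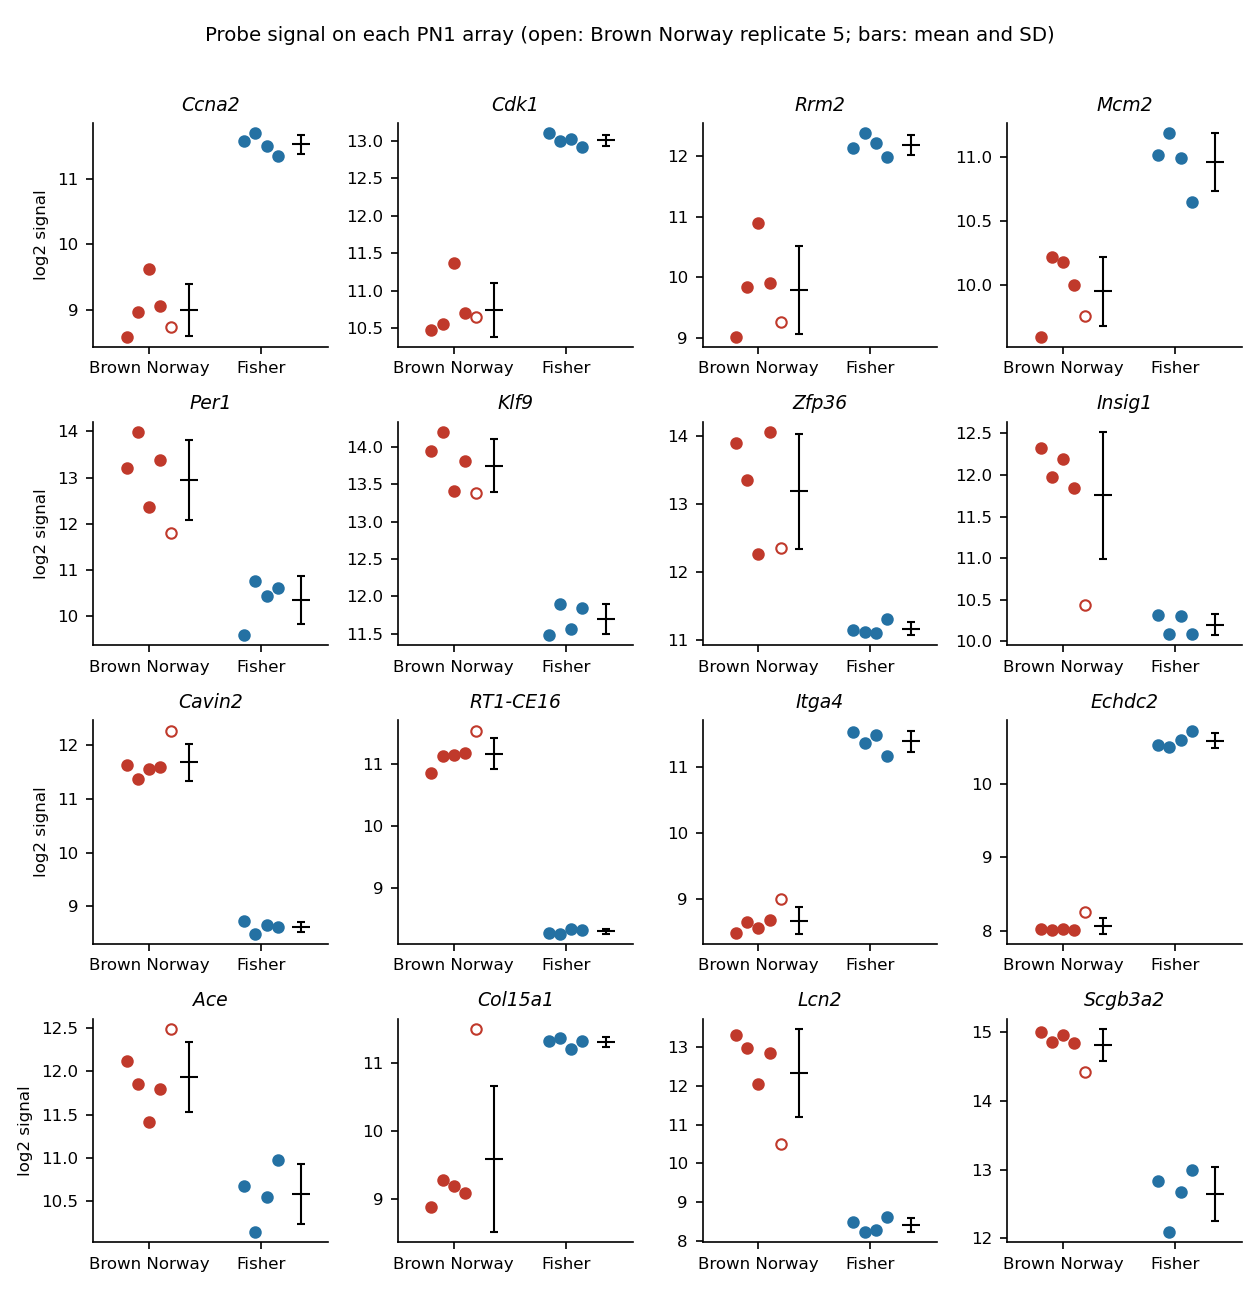
Log2 signal of 16 genes on each BN (red) and Fisher (blue) PN1 array, with bars for the mean and SD and an open circle for BN replicate 5. The groups do not overlap for 15 of the genes, and for Col15a1 BN replicate 5 (11.50) lies above the Fisher arrays while the other BN arrays lie between 8.88 and 9.27.

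More extracellular matrix genes were lower than higher in BN at PN1. Of 31 matrix genes 12 were lower and 3 (Col3a1, Col4a3 and P4ha2) higher, with a median of -0.22, and without BN replicate 5 the lower count was 17 with a median of -0.28. Col15a1, a basement membrane collagen, read 8.88, 9.27, 9.19, 9.08 and 11.50 in BN and 11.33, 11.37, 11.20 and 11.33 in Fisher lung, a difference of -1.73 ± 0.37 (limma, adjusted p 0.000656) and -2.20 without BN replicate 5. Fbln5, which assembles elastic fibres, read 11.58, 12.01, 11.98, 12.07 and 13.17 in BN and 12.90, 12.99, 13.10 and 12.78 in Fisher lung, a difference of -0.78 ± 0.19 and -1.03 without it. For both genes replicate 5 stood above every Fisher array while the other 4 BN arrays stood below every Fisher array. Fbln1 (-0.69), Sparc (-0.68) and Loxl2 (-0.60) were lower, Col3a1 was higher (1.33) and stayed so at PN7 (1.37) and PN14 (1.06), and elastin, Eln, was not called (0.26, limma, adjusted p 0.525). Col1a1 was not called with all arrays (-0.29, limma, adjusted p 0.325) and was called without BN replicate 5 (-0.55, adjusted p 0.0132).

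In the fibroblast list 5 of 19 were lower, Dpt (-1.36), Dcn (-0.86), Plin2 (-0.70), the lipid droplet protein of lipofibroblasts, Mfap4 (-0.41) and Col1a2 (-0.12), and Col3a1 (1.33) and Gpx3 (0.49) were higher; without BN replicate 5, 8 were lower and 2 higher. In the smooth muscle list 3 of 16, Myl9 (-0.58), Cald1 (-0.35) and Myocd (-0.19), were lower, also 3 without BN replicate 5, a share close to the 18% of all probes called lower. Of 40 growth and morphogen signals 7 were higher and 7 lower, against 15.5% and 18% of all probes, and 8 and 13 without BN replicate 5, against 17.5% and 19.8%. Wnt5a read 8.47, 8.59, 8.85, 8.91 and 10.46 in BN and 10.08, 9.87, 10.22 and 9.68 in Fisher lung, a difference of -0.91 ± 0.25 (limma, adjusted p 0.00608; -1.26 without replicate 5). Here too replicate 5 was above all Fisher arrays and the other BN arrays were below them. Gli1 (-0.70), Wnt11 (-0.55) and Bmp4 (-0.41) were lower, and Igfbp3 (0.71), Hey1 (0.59), Notch1 (0.53) and Dll4 (0.36) were higher.

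Endothelial genes went both ways, with 8 of 27 higher and 3 lower and a median of 0.08, and with 8 and 5 and a median of 0.04 without BN replicate 5. Over all probes 15.5% were called higher and 18% lower, or 17.5% and 19.8% without BN replicate 5. Ace, angiotensin-converting enzyme of the lung capillaries, read 12.12, 11.85, 11.41, 11.80 and 12.49 in BN and 10.67, 10.14, 10.55 and 10.97 in Fisher lung, a difference of 1.35 ± 0.17 (2.55-fold; limma, adjusted p 3.9e-07; 1.21 without BN replicate 5) with no overlap. It was not called at PN7 (-0.34) or PN14 (0.41; 0.62, limma, adjusted p 0.00408 without BN PN1 replicate 5 and BN PN14 replicate 3), and with all arrays the PN1 difference differed from both (limma, adjusted p 9.38e-06 and 0.0224). Gpihbp1 (0.99), Sox17 (0.76), Lyve1 (0.69) and Cldn5 (0.67) were higher, while Apln (-1.20), Nos3 (-1.04) and Plvap (-0.37) were lower. Pecam1 and the smooth muscle actin gene Acta2 have no named probe.

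Neutrophil genes were higher in BN lung at PN1, for 10 of 15 members with 1, Cd177 (-0.83), lower and a median of 0.46; without BN replicate 5 the count was 13 with a median of 0.69. Lcn2, lipocalin 2, which neutrophils and airway epithelium both make, read 13.31, 12.96, 12.05, 12.84 and 10.49 in BN and 8.49, 8.23, 8.29 and 8.62 in Fisher lung, a difference of 3.92 ± 0.38 (15.1-fold; limma, adjusted p 2.33e-09; 4.38 without BN replicate 5), with 2.18 at PN7 and 2.70 at PN14. S100a8, a calprotectin subunit, read 12.10, 12.79, 11.72, 12.59 and 10.65 in BN and 10.19, 10.02, 10.44 and 10.85 in Fisher lung, a difference of 1.59 ± 0.39 (1.92 without replicate 5). Lcn2 separated the groups on every array, whereas S100a8 on BN replicate 5 fell inside the Fisher range. The Fisher levels of Lcn2 lay close to background, where the fold depends on the offset. The authors' deposited log2 values gave 4.75 for Lcn2. The list mean was 9.57, 9.96, 9.38, 9.83 and 8.86 on the BN arrays, 8.74 to 8.94 on the Fisher arrays and 9.24 to 9.31 on the Lewis arrays. Whether neutrophil RNA has a part in the other differences was not tested; Lcn2 also belongs to the glucocorticoid list.

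Macrophage genes were higher for 6 of 23 and lower for 2 (Aif1 and Cybb), and for 8 and 4 without BN replicate 5. Background shares were 15.5% and 18%, and 17.5% and 19.8% without that array. Apoe, made by macrophages and type 2 cells among others, read 12.62, 12.10, 11.43, 11.45 and 12.47 in BN and 10.34, 11.07, 9.83 and 10.63 in Fisher lung, a difference of 1.55 ± 0.27 (limma, adjusted p 5.33e-05; 1.43 without BN replicate 5). At PN7 it was lower in BN (-1.14, limma, adjusted p 0.00467), and the change between the ages was 2.69 (limma, adjusted p 7.27e-06). Spp1 (0.88), Lgals3 (0.49) and Ctss (0.35) were higher.

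In antigen presentation, 7 of 23 class I genes were higher in BN and 4 lower, and 7 and 5 without BN replicate 5. All probes gave 15.5% higher and 18% lower, and the lower share of class I genes was close to the latter. RT1-CE16 read 10.86, 11.14, 11.15, 11.18 and 11.55 in BN and 8.27, 8.26, 8.34 and 8.32 in Fisher lung, a difference of 2.88 ± 0.10 (2.79 without BN replicate 5) that held at PN7 (2.85) and PN14 (3.14), without overlap. Its Fisher levels lay close to background, and the authors' deposited log2 values gave 4.02 at PN1. RT1-A1 (1.94), RT1-T24-4 (1.57) and RT1-CE15 (0.99) were higher, while B2m (-0.27), Tapbp (-0.40), Psme2 (-0.48) and RT1-M3-1 (-0.23), of which the first 3 serve class I assembly and peptide supply, were lower. RT1 is the rat major histocompatibility complex, whose alleles differ between these strains. RT1-DMa (0.63), RT1-DMb (0.18), Lgmn (0.28) and Ctss (0.35) were the 4 of 6 class II genes that were higher; without BN replicate 5 the count was 3.

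Interferon-responsive genes were lower for 11 of 29 and higher for 4, with a median of -0.11, and without BN replicate 5 the lower count was 15. All probes gave 18% lower and 15.5% higher, and the higher share of this list was close to the latter. Ifi44 read 8.49, 8.39, 8.50, 8.57 and 9.08 in BN and 10.25, 10.15, 10.13 and 10.19 in Fisher lung, a difference of -1.57 ± 0.12 (limma, adjusted p 1.46e-11; -1.69 without BN replicate 5) that was -1.76 at PN7 and -1.95 at PN14. BN arrays were all more than 1 log2 unit below the Fisher arrays. Ifi27 (-1.13), Lgals3bp (-0.74) and Irf7 (-0.53) were lower, and Ifi47, detected on 0 BN arrays, was at least 2.01-fold lower in BN. The genes higher in BN were Ifitm1 (0.55), Ifi44l (0.33), Ifitm3 (0.21) and Trim25 (0.16).

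Of 16 genes of type 2 immunity 4 were higher (Chi3l1, Retnla, Il4r and Il9r) and 2 lower (Stat6 at -0.70 and Arg1 at -0.16), and of 22 genes from asthma association studies 5 were higher (Chi3l1, Nod1, Alox5ap, Il6r and Pde4d) and 0 lower, against 15.5% and 18% of all probes. The counts were the same without BN replicate 5. Chi3l1, a chitinase-like protein, read 11.20, 11.09, 10.11, 10.77 and 9.80 in BN and 9.57, 9.20, 9.32 and 9.44 in Fisher lung, a difference of 1.21 ± 0.21 (limma, adjusted p 4.17e-05; 1.41 without BN replicate 5) against -0.67 at PN7. Il33, an alarmin of epithelium, read 11.10, 10.70, 10.58, 11.31 and 11.88 in BN and 10.82, 10.53, 10.96 and 10.72 in Fisher lung, with overlapping arrays and no call (0.36, limma, adjusted p 0.134; 0.16, adjusted p 0.441 without BN replicate 5). Kit, the mast cell growth factor receptor, read 8.96, 8.6, 8.45, 8.79 and 9.09 in BN and 9.54, 9.46, 9.75 and 9.55 in Fisher lung, with no overlap and differences of -0.80, -0.89 and -1.26 at PN1, PN7 and PN14 (-0.88 at PN1 without BN replicate 5). The mast cell and basophil list did not share this direction. Of its 11 measured genes 3 were higher and 2 lower at PN1, with a median of 0.03 (2 and 1 without BN replicate 5). At PN7 4 were higher and 2 lower (8.9% and 7.61% of all probes), and at PN14 4 and 1 (5.59% and 6.94%). Of 17 genes of airway contraction 4 were higher (Agtr1a, Gna11, F2rl1 and Avpr1a, by 0.29 or less) and 4 lower (Rgs2 at -0.46, Rgs4, Adra1b and Ptger3), with 5 and 4 without BN replicate 5. Il4 and Il13 were detected on 0 arrays.

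The Lewis arrays, which enter neither group, were used as a scale of lung age. The Lewis PN1 arrays shared the slide of the Fisher PN1 arrays. Lewis PN14 arrays were on other slides, most of them on that of BN replicate 5. Age and slide therefore cannot be told apart in this scale. Of 1639 probes higher at PN14 than at PN1 in Lewis lung, 503 (30.7%) were called higher in BN than in Fisher lung at PN1 and 77 (4.7%) lower, with a median difference of 0.10. Of 2096 probes lower at PN14 in Lewis lung, 64 (3.1%) were higher in BN and 994 (47.4%) lower, with a median of -0.15. Over all tested probes 15.5% were called higher and 18% lower. Without BN replicate 5 the shares were 26.7% higher and 9.1% lower among those that rise with age, and 5.1% and 44.5% among those that fall. The shares of all tested probes were then 17.5% higher and 19.8% lower. Across the 11339 probes the Lewis change with age and the strain difference at PN1 correlated at 0.41, and at 0.29 without BN replicate 5, as a description over probes that share arrays and normalisation. At PN7 the medians of the same probes were -0.04 and 0.03.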

How the data were processed

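Whole-lung RNA was measured on 36 Illumina 1-colour bead arrays. The authors deposited raw bead intensity values and a detection p-value for each of 22226 probes, and a matrix of log2 values; the submitters' processing notes name lumi, with no version given. Another 72 per-sample columns (bead spread and bead number) were not used. From the deposited intensity values, the background was corrected by normexp with an offset of 16, using the deposited detection p-values, and the arrays were quantile-normalised (limma 3.58.1, R 4.3.3), which forces the same distribution on every array. The 11339 probes that 3 or more arrays detected (p under 0.01) were kept, and 10887 were removed. All 36 arrays entered 1 linear model, with a mean for each group of strain and age and moderated variances (28.6 degrees of freedom, 27.7 without BN replicate 5), and p-values were adjusted by Benjamini and Hochberg over all tested probes. Differences are BN minus Fisher.

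Probe names came from the platform annotation: 13192 probes had 1 gene symbol, 9034 had none and 0 had several, and 13151 matched the RefSeq gene table. Where a gene had several probes, each was tested. Named genes were the 15 largest differences in each direction called with and without BN replicate 5, the 10 smallest p in each direction for the change with age, up to 4 members of each list and a set always given; other list members were named after their values were seen. The members and lists were chosen with earlier results of these data known. The code was tested on simulated data. Replicate numbers did not pair the arrays: deviations of same-numbered BN and Fisher arrays correlated at 0.04, 0.23, -0.23 and 0.35. Alternatives were other scalings, background corrections and filters, the deposited log2 values, slide or replicate as a block, array weights, fewer arrays in the fit, and leaving out each array.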

Additional observations from a re-analysis of the deposited data

Results flagged for a closer look

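Among the 36 genes given by array, 10 of the 72 groups of arrays held an array far from the others of its group, and 8 of these were BN PN1 replicate 5. The rule marks about 1 in 20 groups of independent values. These groups share the same arrays and the genes were chosen, so their number cannot be set against that rate. BN replicate 5 was the highest BN array for Cavin2 (12.27), Col15a1 (11.50), Wnt5a (10.46), Ifi44 (9.08) and Echdc2 (8.25), and the lowest for Scgb3a2 (14.42), Washc3 (11.51) and Insig1 (10.43). BN replicate 3, the array with high heart muscle genes, was the highest BN array for Cdk1 (11.37), and BN replicate 1 was the highest for Tsc22d3 (13.87).

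For 24 of these genes the BN minus Fisher difference at PN1 differed from that at PN7 in the limma interaction test. Over all tested probes 18.7% differed from PN7 and 4.51% from PN14. The genes were chosen from these data, some by their PN1 difference or its change with age. Their counts therefore cannot be set against those shares. The log2 difference at PN1 minus that at PN7 was negative for Ccna2 (-4.18), Cdk1 (-3.77), Mki67 (-1.24), Cdc20 (-3.53), Knstrn (-4.15), Rrm2 (-3.86), Mcm2 (-1.92), Foxm1 (-1.20) and Itga4 (-0.55). It was positive for Washc3 (0.40), Lcn2 (1.74), Scgb3a2 (0.69), Per1 (2.28), Ddit4 (2.44), Klf9 (2.61), Tsc22d3 (1.20), Fos (1.70), Zfp36 (2.22), Insig1 (1.82), Fdps (1.48), Ace (1.69), Chi3l1 (1.88), Apoe (2.69) and Il33 (0.76). For 13 genes the difference at PN1 also differed from that at PN14: it was lower at PN1 for Ccna2 (-2.47), Cdk1 (-2.23), Mki67 (-0.82), Cdc20 (-2.14), Knstrn (-2.40), Rrm2 (-2.35), Mcm2 (-1.13) and Foxm1 (-0.69), and higher for Klf9 (1.48), Zfp36 (1.54), Ace (0.95), Chi3l1 (1.47) and Apoe (1.89).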

How the results depend on the processing

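For each of the 36 genes given by array, the direction at PN1 was the same under all 22 alternatives, and 30 also kept their side of the threshold under all of them. The exceptions were Fos, Sftpb, Fbln5 and Wnt5a, which were not called with only the 9 PN1 arrays in the fit, Sftpc, which was called without BN replicate 5 or with a block, and Il33, which was called without BN replicate 3 (0.49, limma, adjusted p 0.0323). The number of probes called at PN1, 3791, was 2258 with median scaling (29.1% higher in BN in place of 46.3%) and 1868 with only the 9 arrays, and 3161 to 4229 when each array was left out in turn. Without BN replicate 5 the 4229 calls were 2476 with median scaling, 2801 with only the 8 remaining arrays, and 3625 to 4354 with each array left out. The 2117 probes whose difference changed between PN1 and PN7 were 1165 with median scaling (104 upward and 1061 downward, 8.9% upward in place of 44.8%), 3566 with array weights, and 1804 to 2635 with each array left out. The 511 between PN1 and PN14 were 250 with median scaling (9.2% upward in place of 27.8%), 1341 with array weights, 1587 without BN PN1 replicate 5 and BN PN14 replicate 3, 856 without BN PN1 replicates 2, 3 and 5 and Fisher PN1 replicate 2 (an alternative chosen after seeing the data), and 431 to 761 with each array left out. With only the 9 arrays in the fit, the members called fell to 8 of 25 for immediate early, 4 of 12 for clock, 7 of 27 for lipid synthesis, 1 of 11 for alveolar type 2, 7 of 22 for alveolar type 1, 4 of 14 for club and 4 of 15 for neutrophil genes (higher in BN), and to 2 of 31 for matrix genes (lower in BN). Median scaling gave 3 clock, 2 alveolar type 2 and 5 alveolar type 1 genes. Interferon genes called lower numbered 17 without BN PN1 replicate 5 and BN PN14 replicate 3, and 7 without BN PN1 replicates 2, 3 and 5 and Fisher PN1 replicate 2. The cell cycle, DNA replication and glucocorticoid counts stayed within 1.5 times of their value under every alternative. The cause of these shifts was not tested. Median scaling moved the median difference of all probes by -0.05 and the deposited values moved it by -0.01. With the replicate number as a block the counts were 4097, 2490 and 706, and BN replicate 5, which had no numbered partner in its block, did not contribute. Signal over background limits the folds of dim probes.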

Other observations

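Of 37 oxidative phosphorylation genes 8 were called lower in BN than in Fisher lung at PN1 and 1, Uqcrc2 (0.27), higher, against 18% and 15.5% of all probes (9 and 1 without BN replicate 5), with a median log2 difference of -0.21 against 0 for all probes. Ndufv2 (-0.52), Ndufa8 (-0.47) and Ndufs1 (-0.46) of complex I and Atp5pf (-0.37) of the ATP synthase were among the lower. Antioxidant genes were higher for 9 of 27 and lower for 3 (Prdx3, Txn1 and Gsta4), as many as without BN replicate 5, with Gpx2 (1.07), Nqo1 (0.69), Gpx3 (0.49) and Prdx6 (0.39) among the higher. Of 24 genes of complement and coagulation 8 were higher, led by F3, tissue factor (1.07), and Cfi (0.82), and 6 were lower, led by C1s (-1.29) and C6 (-0.91); without BN replicate 5 the counts were 10 and 6. C1s and C6 were lower in BN at PN7 (-1.70 and -2.01) and PN14 (-1.49 and -1.68) too.

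Of 7 platelet genes 4 were called higher in BN (Gp9, Clec1b, F13a1 and Gp5), each by 0.24 or less on the log2 scale and close to background; without BN replicate 5 the count was 5. The erythroid ankyrin gene Ank1 was higher in BN by 2.04 at PN1, 1.24 at PN7 and 1.40 at PN14, while Hbb was not called (0.05, limma, adjusted p 0.144). Among 28 leukocyte trafficking genes Itgb2 (0.52) and Ccl21 (0.71) were higher, and Itga4 (-2.72), Ccl6 (-0.87), Cxcl12 (-0.77), Cxcl13 (-0.70) and Itgb1 (-0.21) were lower, with 3 and 7 called without BN replicate 5. With all arrays the lower share was close to the 18% of all probes, and 15.5% of all probes were higher.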
